A study of Mus musculus with 6 samples.

Results

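Vmn2r116 and 5 close relatives (Vmn2r111, Vmn2r112, Vmn2r114, Vmn2r115 and Vmn2r117) are vomeronasal receptor genes of the V2R family that lie on mouse chromosome 17. These 6 genes, of 38561 in the deposited table and of 122 V2R genes in it, are described here across all 6 libraries of the series. They were chosen by name, around Vmn2r116, which was selected on its low counts after pup exposure, so their differences between the groups are given as a description with no test. The libraries hold RNA of male mice of the outbred stock CD-1, taken from the vomeronasal organ and pulled down with an antibody to ribosomal protein S6 in its phosphorylated form. There were 3 libraries after a control exposure, whose nature the labels do not describe, and 3 after exposure to pups. No allele, transgene or age is given, and nothing in the labels ties a library to its own animal, so the spread between libraries may be technical.

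V2R receptors are G protein-coupled receptors with a long extracellular domain at the N terminus, and they detect peptides and proteins. They are made by sensory neurons in the basal layer of the vomeronasal epithelium, which signal through the G protein subunit Go and the channel TRPC2, and most of these neurons use 1 main receptor together with a broadly expressed co-receptor of family C. Vmn2r116, also called V2Rp5, is known as the receptor of ESP1, a peptide that the lacrimal gland of male mice releases into tears and that acts on mating in females and on aggression in males. Vmn2r115, also called V2Rp4, is known as a receptor of ESP22, a tear peptide of juvenile mice. Phosphorylation of S6 rises in neurons that were recently active, which is why the pull-down is used to read out which receptors respond. No library of unprecipitated RNA was analysed here, and in such bulk samples fewer cells of a type and less RNA per cell cannot be told apart.

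All 6 are protein-coding genes with 6 exons and 2568 to 2571 coding bases in GENCODE M21, on the build GRCm38. Vmn2r111 (ENSMUSG00000095093) lies at chr17:22544504-22573482 on the minus strand and Vmn2r112 (ENSMUSG00000094921) at chr17:22600951-22620842 on the plus strand. Vmn2r114 (ENSMUSG00000091945) lies at chr17:23285392-23312537 on the minus strand, Vmn2r115 (ENSMUSG00000091076) at chr17:23343741-23362538 on the plus strand, Vmn2r116 (ENSMUSG00000090966) at chr17:23384604-23404422 on the plus strand and Vmn2r117 (ENSMUSG00000091407) at chr17:23455173-23479699 on the minus strand. The genes thus form a distant pair and a group of 4. Measured between lowest coordinates, whatever the strand, Vmn2r111 lies 840.1 kb and Vmn2r112 783.7 kb before Vmn2r116. Vmn2r114 lies 99.2 kb before, Vmn2r115 40.9 kb before and Vmn2r117 70.6 kb after it.

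The first 50 coding bases, in the first coding exon, are shown because they let the close kinship of the 6 genes be seen directly. Each run is written 5′ to 3′ on the coding strand, from RefSeq's gene start windows on GRCm38, and capitals mark the bases that differ from Vmn2r116.
Vmn2r116: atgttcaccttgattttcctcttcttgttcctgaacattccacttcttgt
Vmn2r115: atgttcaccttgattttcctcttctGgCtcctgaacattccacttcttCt
Vmn2r114: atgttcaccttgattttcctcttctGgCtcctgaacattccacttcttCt
Vmn2r117: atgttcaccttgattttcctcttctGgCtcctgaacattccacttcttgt
Vmn2r112: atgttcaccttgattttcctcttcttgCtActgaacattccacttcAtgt
Vmn2r111: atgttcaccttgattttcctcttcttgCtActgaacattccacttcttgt

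Every relative differed from Vmn2r116 by 2 or 3 of these 50 bases, and Vmn2r114 and Vmn2r115 were identical to each other here. Over RefSeq's whole window of 300 bases (250 before and 50 after the start of the coding sequence), 6 to 11 bases differed from Vmn2r116, of which 3 to 9 lay before that start.

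The window of 60 coding bases in which the relatives differ most from Vmn2r116 (coding bases 97 to 156) is shown next, because it holds letters by which reads of Vmn2r116 can be told from those of every relative. It lies at chr17:23384899-23384958 in Vmn2r116 on GRCm38, and capitals again mark differences from Vmn2r116.
Vmn2r116: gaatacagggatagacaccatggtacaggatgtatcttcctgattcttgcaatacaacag
Vmn2r115: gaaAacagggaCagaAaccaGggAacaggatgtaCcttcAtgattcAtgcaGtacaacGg
Vmn2r114: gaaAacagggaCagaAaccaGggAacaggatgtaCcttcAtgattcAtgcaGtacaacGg
Vmn2r117: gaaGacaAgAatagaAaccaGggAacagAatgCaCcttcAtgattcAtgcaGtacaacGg
Vmn2r112: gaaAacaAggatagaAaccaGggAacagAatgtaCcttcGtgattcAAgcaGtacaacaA
Vmn2r111: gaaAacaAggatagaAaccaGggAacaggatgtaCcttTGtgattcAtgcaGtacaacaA

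Here 10 to 13 of the 60 bases differed from Vmn2r116, with 10 in Vmn2r114 and Vmn2r115, 11 in Vmn2r111, 12 in Vmn2r112 and 13 in Vmn2r117. Other stretches carried no difference at all. The longest coding run of Vmn2r116 found unbroken in a relative was 141 bases, shared with Vmn2r112 (coding bases 522 to 662, chr17:23386637-23386777, plus strand, within 1 exon), and it is shown as a stretch in which a read fits both genes equally well.
Vmn2r116 and Vmn2r112: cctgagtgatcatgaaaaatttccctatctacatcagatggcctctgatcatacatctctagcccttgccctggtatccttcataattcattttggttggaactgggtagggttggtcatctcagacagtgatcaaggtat

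The longest such runs were 130 bases with Vmn2r117, 108 with Vmn2r114, 106 with Vmn2r111 and 79 with Vmn2r115. Over the whole coding sequence, Vmn2r116 was identical to each relative at 92.94% (Vmn2r114) to 93.5% (Vmn2r111) of bases. The other 5 formed closer groups: Vmn2r111 and Vmn2r112 shared 96.89% of bases, Vmn2r114 and Vmn2r117 96.69%, Vmn2r114 and Vmn2r115 95.99%, and Vmn2r115 and Vmn2r117 95.57%. Vmn2r116 had no partner of that closeness among them. Vmn2r113, a V2R gene located between the pair and the group of 4 that is not among the 6, shared 85.81% of its coding bases with Vmn2r116.

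**Figure D1:**
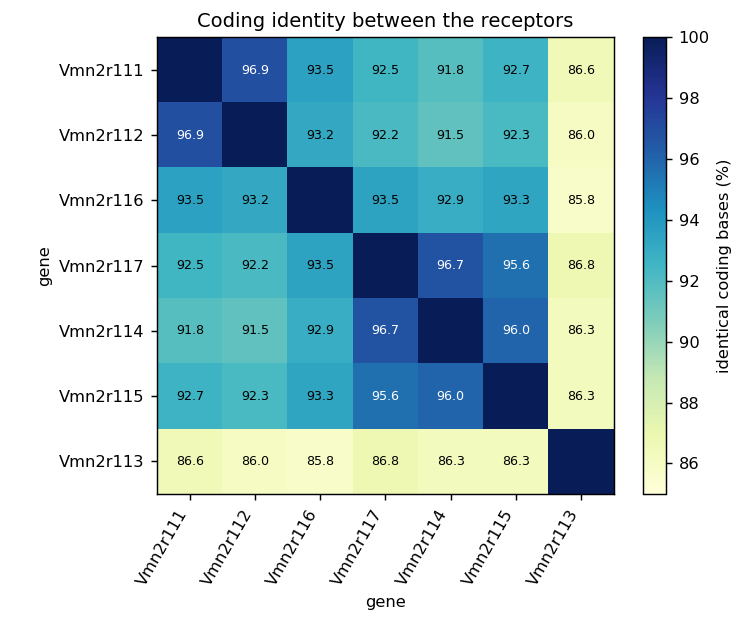
Share of identical coding bases (%) for each pair of the 6 receptors and for Vmn2r113, from a joint alignment of their GENCODE M21 coding sequences. The darkest cells off the diagonal are Vmn2r111 with Vmn2r112 (96.89%) and Vmn2r114 with Vmn2r117 (96.69%), Vmn2r116 stands near 93% to all 5 relatives, and Vmn2r113 stays below 87% to every gene.

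The differences were not spread evenly along the gene. In windows of 300 coding bases, bases 301 to 600, which belong to the extracellular part, differed most: Vmn2r114 and Vmn2r117 were each identical to Vmn2r116 at 84.67% of bases there, Vmn2r115 at 85.33%, Vmn2r111 at 88.67% and Vmn2r112 at 89.0%. In the window from 2101 to 2400 the same 5 genes were identical to Vmn2r116 at 94.67% to 97.67% of bases. Vmn2r114 and Vmn2r117 were closest to Vmn2r116 in this late window (97.67% each), and Vmn2r111 and Vmn2r112 in the window from 601 to 900 (96.67% each).

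Sequence shared with another gene bears on every count below. Of the 50-base words in the annotated transcript, 16.1% in Vmn2r116 were found in at least 1 other gene's transcripts (both strands searched). This was the lowest share among the 6 at this word length, while at 35 bases Vmn2r111 was lower (28.1% against 28.9%). The share was 18.4% in Vmn2r111, 23.4% in Vmn2r117, 24.2% in Vmn2r115, 25.7% in Vmn2r114 and 27.7% in Vmn2r112. Among the 5 relatives, the words of Vmn2r116 were shared most with Vmn2r117 (7.44%) and Vmn2r112 (7.22%) and least with Vmn2r115 (3.13%), its neighbour. Within the coding sequence the shared portion was larger, 22.9% in Vmn2r116, 53.5% in Vmn2r114 and 59.1% in Vmn2r117. How reads that fit several genes were counted is not given in the sources used here, so counts of these genes are uncertain to that extent. The mice were CD-1, while the build is that of another strain, and allelic differences were not tested.

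The control libraries held 10590716 to 11240065 counts and the pup libraries 18199476 to 20871266. Between 14.7% and 40.0% of all counts came from the gland genes Obp2a, Obp2b and Bpifa1, with the highest share in control exposure replicate 3. Levels are therefore given in CPM scaled by TMM (counts relative to the library total, with a factor per library that balances a few very abundant genes). Defining genes of vomeronasal neurons were present in every library: Omp, the olfactory marker protein of mature neurons, was at 664 to 922 CPM and Gnao1, the Go subunit of V2R neurons, at 37.0 to 107 CPM. Trpc2 was not matched to a row of the table.

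Vmn2r116 was the receptor of the 6 that was high after control exposure and low after pup exposure. Its counts were 1896, 1520 and 479 in control exposure replicates 1, 2 and 3, and 85, 246 and 388 in pup exposure replicates 1, 2 and 3, although the pup exposure libraries were deeper. In scaled CPM it stood at 149, 136 and 74.8 after control exposure and at 4.56, 8.71 and 19.2 after pup exposure. The lowest control library, replicate 3, was thus well above the highest pup library, also numbered replicate 3, and the groups did not overlap. The mean was 11.1-fold higher after control exposure, with a log2 fold change (pup over control exposure) of -3.47 (SE 0.55, edgeR).

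Vmn2r115, the ESP22 receptor, lies nearest on the 5′ side of Vmn2r116 among the 6. It had the highest level of the 5 relatives in every library but control exposure replicate 3, where Vmn2r112 was higher. Its scaled CPM values were 26.2, 28.2 and 15.8 after control exposure and 16.4, 32.8 and 28.5 after pup exposure. The groups overlapped fully, with the lowest value in a control library and the highest in a pup library. The log2 fold change was 0.15 (SE 0.41), and it turned negative without control exposure replicate 3 (-0.096) or without pup exposure replicate 2 (-0.054).

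Vmn2r114, the closest relative of Vmn2r115 by its first bases, was barely counted. It had 6, 9 and 9 counts after control exposure and 10, 72 and 40 after pup exposure, or 0.47, 0.807 and 1.41 against 0.536, 2.55 and 1.98 CPM. Pup exposure replicates 2 and 3 were above all other libraries, while pup exposure replicate 1 lay within the control range. Its log2 fold change was 0.94 (SE 1.03), an error as large as the value itself.

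Vmn2r117, the only one of the 6 on the 3′ side of Vmn2r116, was also sparse, with 23, 40 and 21 counts after control exposure and 22, 34 and 50 after pup exposure. These amount to 1.8, 3.59 and 3.28 CPM against 1.18, 1.2 and 2.47 CPM. Pup exposure replicates 1 and 2 lay under all controls and replicate 3 lay within them. The log2 fold change was -0.83 (SE 0.81).

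Vmn2r112, of the distant pair, stood at 14.7, 22.6 and 19.8 CPM after control exposure and at 7.83, 14.0 and 14.1 CPM after pup exposure, so that the groups did not overlap but lay close together (14.7 against 14.1 CPM). Its mean went from 19.0 ± 4.03 to 12 ± 3.6 CPM (SD, n = 3 each), with a log2 fold change of -0.67 (SE 0.42). Vmn2r111, the other gene of the pair, which shares more coding bases with Vmn2r112 than any other pair here, stood at 4.47, 14.0 and 10.2 CPM after control exposure and at 12.4, 9.31 and 7.32 CPM after pup exposure. Its log2 fold change of 0.022 (SE 0.51) had no stable sign: it was -0.32 when control exposure replicate 1 was left out, 0.44 when replicate 2 was, and -0.0083 with RLE scaling.

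**Figure D2:**
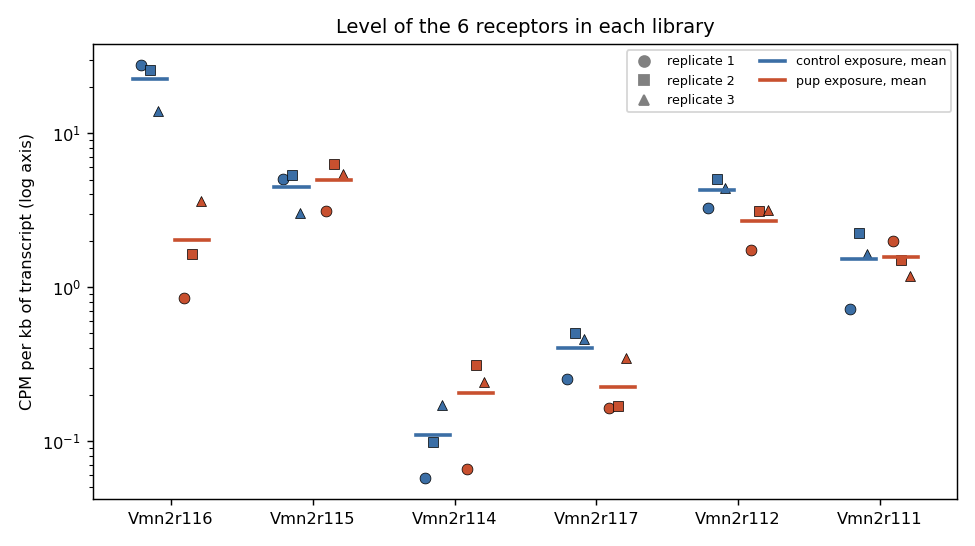
Level of each receptor in each library, in TMM-scaled CPM per kb of annotated transcript on a log axis, with blue for control exposure, red for pup exposure, a symbol for each replicate and bars for group means. Vmn2r116 stands at 14.0 to 27.9 in the control libraries and 0.855 to 3.6 in the pup libraries, and the points of both groups interleave in Vmn2r111, Vmn2r114, Vmn2r115 and Vmn2r117.

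All 6 genes passed the filter on low counts, and the groups did not overlap in 2 of them, Vmn2r112 and Vmn2r116, both lower after pup exposure. Over all 15498 genes tested, every pup exposure library lay below every control library in 9.6% of genes, and the groups lay apart in either direction in 19.8%. In edgeR's quasi-likelihood test with Benjamini-Hochberg adjustment, 0% of genes passed 0.05 in either direction, and none of the 6 did. At an unadjusted p under 0.05, 6.31% of genes were higher and 4.67% lower, and 1 of the 6, Vmn2r116, was among the lower ones. DESeq2 called 0.406% of the genes it gave an adjusted p higher and 0.626% lower, and limma-voom 0.00645% and 0.0452%; each had 1 of the 6, Vmn2r116, among the lower ones. Since Vmn2r116 was chosen on this contrast, nothing is read from these counts. The median log2 fold change of the 6 was -0.32, with 3 above and 3 below 0, against 0.03 over all genes tested.

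Compared per length of transcript, the order of the 6 differed between the groups. After control exposure, Vmn2r116 came first in every library, at 27.9, 25.6 and 14.0 CPM per kb, which was 5.56, 4.74 and 3.17 times the level of the next gene. Vmn2r115 (4.48 ± 1.27 CPM per kb, SD, n = 3) and Vmn2r112 (4.25 ± 0.9) followed and did not differ beyond their spread, then came Vmn2r111 (1.53 ± 0.77), Vmn2r117 (0.403 ± 0.133) and Vmn2r114 (0.109 ± 0.0576). After pup exposure, Vmn2r115 came first in every library, at 4.96 ± 1.63 CPM per kb. Vmn2r112 (2.67 ± 0.803), Vmn2r116 (2.03 ± 1.41) and Vmn2r111 (1.56 ± 0.41) followed, in an order that varied between libraries. Vmn2r112 was below Vmn2r111 in pup exposure replicate 1 (1.75 against 1.99). It was above Vmn2r111 in replicates 2 (3.13 against 1.5) and 3 (3.15 against 1.18). Vmn2r117 (0.226 ± 0.103) and Vmn2r114 (0.205 ± 0.126) came last and likewise did not differ beyond their spread. The ratio of Vmn2r116 to Vmn2r115 per kb was 5.56, 4.74 and 4.65 in the control libraries and 0.272, 0.26 and 0.66 in the pup libraries.

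Among 120 V2R genes with an annotated transcript, Vmn2r116 ranked 1, 2 and 3 by counts per kb in control exposure replicates 1, 2 and 3. In the pup exposure libraries it ranked 53, 49 and 20. Vmn2r115 held ranks 12, 15 and 21 in the controls and 16, 13 and 12 after pup exposure, so that its place among V2R genes was similar in both groups. Vmn2r114 stayed between ranks 83 and 101 in every library.

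Shares within the group of 6 need no scaling between libraries. Vmn2r116 gave 75.7% of the counts of the 6 genes in control exposure replicate 1 (95% Wilson interval 74.0% to 77.4%, for counting error only), 66.3% in replicate 2 and 59.7% in replicate 3. After pup exposure it gave 85 of 800 counts, or 11%, in replicate 1, then 12.7% and 26.1%, the last with an interval of 23.9% to 28.4%. Vmn2r115 gave 13.3%, 13.7% and 12.6% after control exposure and 38.2%, 47.8% and 38.7% after pup exposure. These shares are tied to each other, and the level of Vmn2r115 itself overlapped between the groups.

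**Figure D3:**
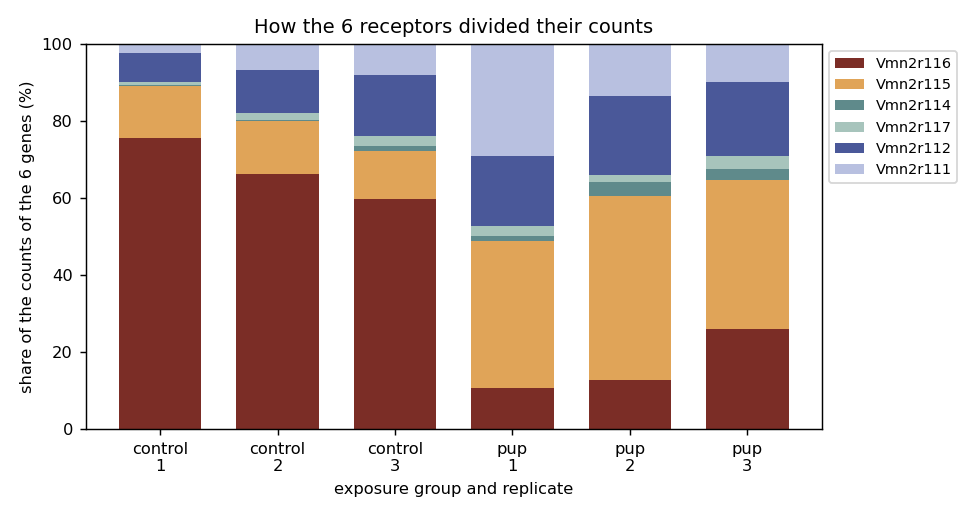
Share of the summed counts of the 6 genes (%) that each receptor gave, with 1 stacked bar per library. The bottom segment, Vmn2r116, spans 59.7% to 75.7% of the bar in the control libraries and 11% to 26.1% in the pup libraries, where Vmn2r115 gives 38.2% to 47.8%.

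The 5 relatives added up had overlapping levels in the groups. Their summed level was 47.6, 69.1 and 50.5 CPM in the controls, against 38.3, 59.9 and 54.3 CPM with pups. With their rows merged before the fit, the log2 fold change of the 5 was -0.13 (SE 0.36). With all 6 rows merged it was -1.51 (SE 0.39), from 176 ± 43.8 to 61.7 ± 16.4 CPM (SD, n = 3 each), and the groups stayed apart. Merging Vmn2r116 with Vmn2r115 alone gave -1.96 (SE 0.44). These merged counts do not change when a read is moved from one of the merged genes to another.

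Set against the whole V2R family, the 6 genes gave 14.5%, 11.1% and 10.2% of V2R counts after control exposure and 3.19%, 3.43% and 3.72% after pup exposure. Vmn2r116 alone gave 11%, 7.4% and 6.07% in the controls and 0.339%, 0.436% and 0.97% after pup exposure. The other 5 together gave 3.51%, 3.75% and 4.09% against 2.85%, 2.99% and 2.75%. That share was lower in every pup library, although the summed level of the 5 overlapped between groups. A share also depends on the other V2R genes. Of the 91 of these that were tested, 66 had a log2 fold change above 0 and 25 below (median 0.27). The summed level of all V2R genes was 1230 to 1840 CPM in the controls, against 1340 to 2000 CPM with pups, so the groups overlapped in V2R counts as a whole. Relative to Gnao1, Vmn2r116 had 4020, 1930 and 1130 counts per 1000 Gnao1 counts in the controls and 42.5, 94.1 and 323 after pup exposure. Gnao1 itself averaged 58.0 CPM in the controls and 86.4 CPM with pups, with overlapping groups, and a higher Gnao1 level lowers every such ratio. On the Gnao1 scale the groups lay apart in 2 of the relatives as well, both lower with pups. The share of all genes lying apart on it was not computed. Vmn2r112 reached at most 237 with pups and more than that in every control (up to 396), and Vmn2r117 had 48.7, 50.7 and 49.5 against 11, 13.0 and 41.6. Of all V2R counts, Vmn2r117 gave 0.133%, 0.195% and 0.266% in the controls and 0.0877%, 0.0602% and 0.125% with pups, so its groups overlapped in CPM but not in these ratios.

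Of the 25 other V2R genes on chromosome 17, with pseudogenes left out, 20 were tested. Their median log2 fold change was 0.41, with 16 above and 4 below 0, and none passed the threshold in edgeR, DESeq2 or limma-voom. In edgeR without adjustment, at p under 0.05, 3 were higher and none was lower, beside the 6.31% and 4.67% of all genes given above. The groups did not overlap in 4 of the 20, all higher after pup exposure, beside 19.8% of all genes in either direction: Vmn2r92 (2.03, SE 0.67), Vmn2r96 (2.24, SE 0.76), Vmn2r124 (1.89, SE 0.61) and Vmn2r120 (1.15, SE 0.65). These 4 were named for that separation after their values were seen. By lowest coordinate, 3 of them lie 4811.5 to 5335.2 kb before Vmn2r116. The nearest of these 20 to Vmn2r116, Vmn2r113, had a log2 fold change of -0.76 (SE 0.92) with overlapping groups. Vmn2r105, at 40.8 to 78.2 CPM in all libraries, was near 0 (0.024, SE 0.38).

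**Figure D4:**
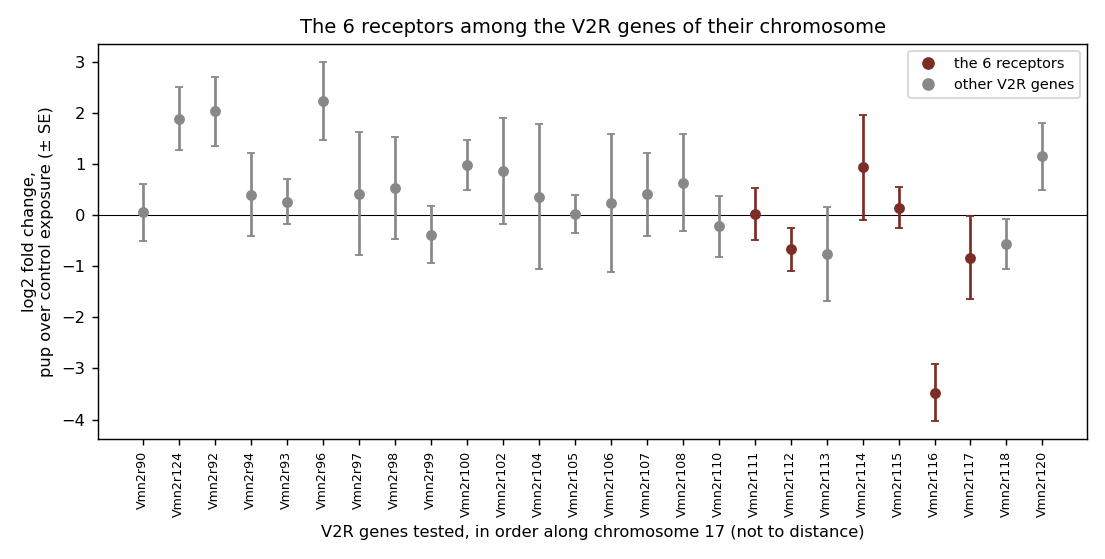
Log2 fold change (pup over control exposure, edgeR, ± SE) of the V2R genes of chromosome 17 that were tested, in their order along the chromosome, with the 6 receptors in red and the other 20 in grey. Pseudogenes are left out. Vmn2r116 lies at -3.47, lower than every other gene drawn, next to Vmn2r115 at 0.15 and Vmn2r117 at -0.83.

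Genes that V2R neurons use beside their receptor were looked at in a list of 31, of which 30 were matched and tested. Over all genes, edgeR called none of the 30 after adjustment. Without it, at p under 0.05, 3 were higher and 6 lower, against 6.31% and 4.67% of all genes, and the median log2 fold change was -0.11, with 13 above and 17 below 0, against 0.03 over all genes tested. DESeq2 called 1 of them, Kcnn3, as lower, against 0.626% of the genes to which it gave an adjusted p.

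Among the 8 tested genes of V2R signalling the median was 0.45. Kcnn3, which encodes the calcium-activated potassium channel SK3, stood at 26, 65.9 and 15.6 CPM after control exposure and at 0.697, 2.23 and 7.52 CPM after pup exposure. The groups did not overlap (log2 fold change -3.37, SE 0.80, edgeR adjusted p = 0.375), and the adjusted p was 0.00109 in DESeq2, with a range of 4.23e-07 (edgeR with no filter) to 0.831 over 14 other settings, of which 2 called it. As with Vmn2r116, pup exposure replicate 1 was the lowest library and pup exposure replicate 3 the highest pup library. Ano2, a calcium-activated chloride channel, had the opposite sign (1.07, SE 0.36, adjusted p = 0.421), and so had its relative Ano1 (0.68, SE 0.35). In both, and in the G protein subunit gene Gnb1, every pup library lay above every control. The G protein subunits Gnao1 (0.58, SE 0.40), Gnb1 (0.75, SE 0.41) and Gng8 (-0.38, SE 0.40) did not pass, nor did the phospholipase gene Plcb2 (-0.12, SE 0.73) and the potassium channel gene Kcnj3 (0.32, SE 1.37), both at low levels.

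The family C genes, Vmn2r1 to Vmn2r7, encode the co-receptors. None passed in edgeR. Vmn2r7 (-1.69, SE 0.54) and Vmn2r6 (-1.37, SE 0.51) were at 115, 209 and 105 CPM and at 98.5, 190 and 82.5 CPM in the controls, and at 15.4, 41.1 and 76.6 CPM and 22.8, 41.2 and 80.0 CPM after pup exposure. In both, all pup libraries lay below all controls, with pup exposure replicate 1 again the lowest. Vmn2r3 (0.97, SE 0.38) and Vmn2r5 (1.87, SE 0.63) had every pup library above every control. Vmn2r1 (0.39, SE 0.51), Vmn2r2 (0.40, SE 0.48) and Vmn2r4 (-0.53, SE 0.44) had overlapping groups.

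The H2-Mv genes encode non-classical MHC class I molecules found in a subset of V2R neurons, and B2m encodes the light chain they pair with. None of these 10 genes passed in edgeR (smallest adjusted p = 0.418), 9 had a negative value, against 7522 of the 15498 genes tested, and the median was -1.0. The groups did not overlap, with pup exposure lower (9.6% of all genes), in 4 of them: H2-M1 (-1.18, SE 0.44), H2-M9 (-1.52, SE 0.65), H2-M10.4 (-1.44, SE 0.47) and H2-M11 (-1.40, SE 0.69). They overlapped in H2-M10.1 (0.19, SE 0.45), H2-M10.2 (-0.078, SE 0.35), H2-M10.3 (-1.08, SE 0.55), H2-M10.5 (-0.76, SE 0.39), H2-M10.6 (-0.92, SE 0.57) and B2m (-0.11, SE 0.52).

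A further list held 5 genes of vomeronasal neuron identity, and none passed the threshold. Tfap2e, a transcription factor of basal neurons (-0.39, SE 0.44), Robo2, an axon guidance receptor (0.82, SE 0.47), and Omp, which marks mature neurons of both layers (-0.19, SE 0.38), had overlapping groups. Kirrel3, an adhesion molecule (0.73, SE 0.41), had every pup library above every control. Meis2 had been listed with the basal genes but is known as a transcription factor of apical neurons, and its groups overlapped (0.14, SE 0.36). The apical neuron genes Gnai2 (0.69, SE 0.44) and Nrp2 (0.47, SE 0.35), which mark V1R neurons, did not pass either.

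Summed marker levels of other cell types are set beside these values. The 4 sustentacular cell markers added up to 3630 to 4320 CPM in the controls and 1420 to 2160 CPM after pup exposure, and the 4 haemoglobin genes of red blood cells to 200.0 to 589 and 50.8 to 168 CPM, both without overlap. Glia markers (2 genes) were at 71.1 to 78.2 and 84.4 to 94.0 CPM, and endothelium markers (2 genes) at 1.96 to 3.44 and 4.05 to 4.75 CPM, again without overlap. The 7 genes listed as V2R neuron markers gave 232 to 328 and 298 to 439 CPM and overlapped, and without Meis2 they gave 120.0 to 198 and 187 to 282 CPM, again with overlap. Overlap was also seen in those of V1R neurons (2 genes, 189 to 242 and 215 to 500 CPM), mature neurons (3 of 4 matched, 1230 to 1260 and 988 to 1270 CPM), immature neurons (4 genes, 87.8 to 179 and 42.0 to 108 CPM), macrophages (3 genes, 35.5 to 41.9 and 22.7 to 49.2 CPM) and main olfactory neurons (3 genes, 6.9 to 17.2 and 10.8 to 13.3 CPM). The part of these cell types in the low level of Vmn2r116 was not tested.

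The ESP peptides, among them those known for Vmn2r116 and Vmn2r115, are made in lacrimal and other exocrine glands. Of 14 Esp genes named in the table, 11 had no count in any library. Esp8 had 10 counts in all, Esp1 had 1, in control exposure replicate 3, and Esp6 had 1, in pup exposure replicate 2. The 12 Esp counts in all are too few to compare the groups.

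Likeness to Vmn2r116 was measured as the root mean square difference of log2 CPM profiles over the 6 libraries, each centred on its own mean, where 0 would be an identical profile. It includes the difference between the groups and is a description of these 6 libraries. The median difference over the other genes tested was 2.04. Bcl6, a transcriptional repressor, came closest of 15492 genes (0.36), followed by Pld1, a phospholipase D (0.43), Nrep (0.43), Zfp36l1, an RNA-binding protein of mRNA decay (0.47), and 8030423F21Rik (0.50). Bcl6 stood at 154, 124 and 96.3 CPM after control exposure and at 3.7, 15.4 and 21.4 CPM after pup exposure. Zfp36l1 stood at 1520, 1010 and 954 CPM against 60.4, 46.8 and 140 CPM. In edgeR, Zfp36l1 had an adjusted p of 0.0938, Nrep of 0.148, Bcl6 of 0.191 and Pld1 of 0.199, so none passed.

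Among 189 chemoreceptor genes, the closest were Vmn1r46 (0.82), the co-receptor gene Vmn2r7 (0.93), Vmn2r53 (1.06), Vmn2r80 (1.06) and Fpr-rs7, a formyl peptide receptor gene (1.08). Only Fpr-rs7 of these 5 lies on chromosome 17. Vmn2r53 was at 60.8, 216 and 76.7 CPM in the controls and 3.0, 37.0 and 29.9 CPM after pup exposure, while Vmn1r46, Vmn2r80 and Fpr-rs7 did not exceed 4.53 CPM in any library. These 5 receptors were picked as the closest of 189, so the relatives, which were not picked by likeness, are not ranked against them. The relatives stood at 1.54 (Vmn2r117), 1.58 (Vmn2r112), 1.93 (Vmn2r115), 2.15 (Vmn2r111) and 2.32 (Vmn2r114). The median over the other genes tested was 2.04.

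**Figure D5:**
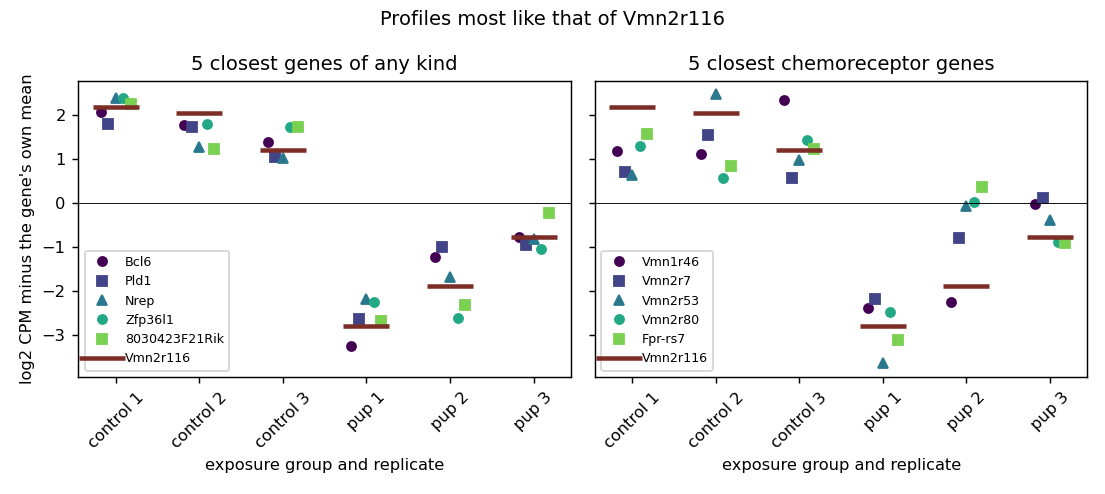
Log2 CPM minus the gene's own mean in each library, with bars for Vmn2r116 and symbols for the 5 closest genes of any kind (left) and the 5 closest chemoreceptor genes (right). The symbols on the left lie near the bar in all 6 libraries, with a root mean square difference of 0.36 to 0.50, and those on the right lie farther off, at 0.82 to 1.08.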

How the data were processed

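Vomeronasal RNA of CD-1 males, precipitated with anti-phospho S6, was sequenced in 3 control and 3 pup exposure libraries, with low-input cDNA and shearing per the labels' protocols. The authors deposited raw read counts per Ensembl gene. Reads were placed on GRCm38, per the submitters' processing notes. For the aligner, the counter, the annotation and reads that fit several genes, the method is not given in the sources used here.

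Of 38561 gene IDs, 36723 matched GENCODE M21. edgeR 4.0.16 (R 4.3.3) was fitted to all genes with group as the only term, filterByExpr (minimum count 10, total 15), TMM scaling, and Benjamini-Hochberg adjustment at 0.05 over 15498 genes. Standard errors come from the F statistic. The common biological coefficient of variation was 0.535. The fit was checked on simulated data. No 2 replicates of a group were merged, since each pair differed by more than sampling noise (chi-square over degrees of freedom 86.2 to 300). Libraries of the same replicate number had correlations of -0.0353, 0.179 and 0.0745 between their deviations from the group mean. With 3 libraries per group this cannot settle whether the numbers pair libraries, which the labels do not say.

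Coding sequences were aligned with MAFFT 7.526. Shared words were sought in all GENCODE transcripts. Likeness used log2 CPM with a prior count of 2. Named were the 6 genes, all genes of the lists, and the 5 receptors and 5 genes with the profile closest to Vmn2r116. Vmn2r92, Vmn2r96, Vmn2r105, Vmn2r113, Vmn2r120 and Vmn2r124 were named after their values were seen. The members and lists were chosen with earlier results of these data known. Other settings were RLE, upper quartile or no scaling, no filter, a stricter filter, DESeq2 1.42.0, limma-voom 3.58.1, each library left out, and a block for the replicate number.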

Additional observations from a re-analysis of the deposited data

How the results depend on the processing

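The log2 fold change of Vmn2r116 was negative under all settings run. It lay between -3.64 and -3.34 with other scalings, filters and tools, at -3.67 with the replicate number as a block, and between -4.18 and -3.10 with 1 library left out (the extremes came without replicates 3 and 1 of pup exposure). Scaling by library totals alone moved the median of all genes to 0.31 and leaving out the filter moved it to 0.13, so that the values of Vmn2r116 there (-3.34 and -3.44) are to be read against those medians. Chosen after seeing the data, adding the counts of Vmn2r115 gave -1.96 and adding those of all 5 relatives -1.51. The log2 ratio of its share of V2R counts was -3.81, with a range of -4.39 to -3.53 with 1 library left out, -3.40 without the most abundant other V2R gene, and -3.02 with only V2R genes of chromosome 17 as the denominator. That denominator also moved the ratio of Vmn2r112 from -0.97 to -0.36, of Vmn2r117 from -1.12 to -0.49 and of Vmn2r115 from -0.14 to 0.52. Vmn2r116 is itself a large part of that denominator in the controls, and its lower counts with pups shrink it there. The ratios of the relatives are raised by construction, so nothing is read from these moves. A denominator without Vmn2r116 was not computed. The log2 fold change of Vmn2r112 stayed negative (-0.82 to -0.35), as did that of Vmn2r117 (-1.26 to -0.56). Vmn2r114 was positive (0.63 to 1.42) in the 11 of 14 settings that kept it. It was lost with the stricter filter and without pup exposure replicate 2 or 3, the libraries where it was highest. Its sign could not be checked there. The signs of Vmn2r111 (-0.32 to 0.44) and Vmn2r115 (-0.096 to 0.39) were not stable.

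No gene was called by edgeR at an adjusted p of 0.05, in either direction, with the scalings, the stricter filter, the block or 1 library left out. Without a filter 61 genes were called higher and 59 lower, in DESeq2 50 and 77, and in limma-voom 1 and 7, while 978 and 723 had an unadjusted p under 0.05 in edgeR. Of the list of V2R neuron genes, 2 were called lower without a filter (Kcnn3 and Vmn2r7) and 1 in DESeq2 (Kcnn3); the cause was not tested. The share of words of Vmn2r116 found in another gene was 28.9% at 35 bases and 2.54% at 100 bases, by construction, since shorter words match more often. The counts of Vmn2r114 (6 to 72) and Vmn2r117 (21 to 50) limit what can be said of them.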
